A study of Mus musculus with 144 samples.

Results

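Retinal microglia of mice given the high dose of ripasudil (10 mg/kg) were compared with retinal microglia of mice given the vehicle PBS, cell by cell and across all genes. Cells were taken from the deposited expression table by their group label, and matched on plates 1, 2 and 3. A cell was kept when at least 1000 genes had an FPKM of 1 or more (an abundance scaled to gene length and to the assigned reads of the cell). This left 47 high-dose cells (15, 16 and 16 on the plates) and 46 PBS cells (16, 16 and 14), together 93 of the 144 cells deposited in the series. Of the 48 cells per group, the filter left out 1 high-dose cell with 939 such genes and 2 PBS cells with 906 and 876. The kept cells nearest to the limit held 1006 genes in the high-dose group and 1144 in the PBS group.

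All cells were sorted one by one from retinas of Iba1-EGFP mice, in which cells that express the myeloid marker Iba1 fluoresce green. High-dose cells came from mice of 12 weeks and PBS cells from mice of 10 to 14 weeks, and the labels did not say whether an eye had been injured. The low-dose group (1 mg/kg), cited below for comparison, held 47 kept cells from mice of 14 weeks. No animal was named in the labels, and each group counted as 1 sample. No difference had a replicate check, no test was made, and the spread between animals is unknown. Each group had its own block of wells on every plate, so dose, age and well position cannot be told apart. Cells were not replicates; plates served only to show whether a difference had 1 direction on all 3.

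Ripasudil inhibits ROCK1 and ROCK2, kinases activated by the small GTPase RhoA. ROCK raises the phosphorylation of the regulatory light chains of non-muscle myosin II, and through LIM kinase it holds back cofilin, so that actin filaments form and contract. The pool of free actin in turn controls MRTF, a partner of the transcription factor SRF, which switches on genes of the actin cytoskeleton. SRF also serves many immediate early genes, whose transcripts appear within minutes of a stimulus. Microglia are the resident macrophages of the retina, and they express complement, Fc receptors, lysosomal enzymes and, when activated, cytokines.

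SRF binds a short element called the CArG box, so promoters of the listed genes were searched for it on both strands, from 250 bases before to 50 bases after each start in RefSeq on GRCm38.p6. The element was present in 535 of 32851 promoter windows (1.63%). Among 820 measured genes of the lists used below, 653 had a window and 17 held the element. Sequences are shown for Actg1 and Cnn2 of the actin list and for Zfp36 and Egr2 of the immediate early list. Those of Myl6, of the ROCK list, and Ldha, of the glycolytic list, are added. Capitals mark the CArG box, each sequence is written in the gene's own direction, and a match describes letters, not binding. They lie at chr11:120348546-120348615 on the minus strand (Actg1), chr10:79988514-79988583 on the plus strand (Cnn2), chr10:128493020-128493089 on the minus strand (Myl6), chr7:28379247-28379316 on the minus strand (Zfp36), chr10:67537464-67537533 on the plus strand (Egr2) and chr7:46845781-46845850 on the plus strand (Ldha).
Actg1: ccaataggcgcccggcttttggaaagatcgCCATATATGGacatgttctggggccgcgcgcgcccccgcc
Cnn2: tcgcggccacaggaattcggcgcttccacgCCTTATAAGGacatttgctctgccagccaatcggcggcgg
Myl6: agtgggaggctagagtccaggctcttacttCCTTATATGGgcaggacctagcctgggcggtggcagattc
Zfp36: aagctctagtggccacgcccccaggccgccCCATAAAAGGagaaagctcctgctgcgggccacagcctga
Egr2: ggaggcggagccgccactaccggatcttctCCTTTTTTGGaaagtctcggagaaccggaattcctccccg
Ldha: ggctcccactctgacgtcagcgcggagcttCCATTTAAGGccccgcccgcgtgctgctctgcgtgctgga

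The cells of both groups carried the transcripts that define microglia. Csf1r, a growth factor receptor that microglia need to survive, was found in all 47 high-dose and all 46 PBS cells. The purinergic receptor P2ry12 was found in 34 and 39 cells, and Tmem119 in 42 and 40. The summed FPKM of 10 microglial markers had a median of 7845 in high-dose and 8369 in PBS cells. Rod photoreceptor transcripts were found in more high-dose than PBS cells. They were not limited to these groups, as 1 low-dose cell held 6 rod markers at a summed FPKM of 4661. At least 3 of 10 rod markers were found in 11 high-dose cells (23.4%, exact Clopper-Pearson 95% interval 12.3 to 38.03) and 6 PBS cells (13.04%, 4.94 to 26.3). Their summed FPKM reached 100 in 9 and 1 cells, and its highest value was 15132 and 346. Markers of border macrophages summed to 100 or more in 4 cells of each group, and 3 markers of T or NK cells were found in no cell. Intervals here cover counting error only.

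High-dose cells held fewer detected genes, a gene being detected at an FPKM of 1 or more. The number per high-dose cell ran from 1006 to 6149 with a median of 2264, and it ran from 1144 to 9077 with a median of 3143 in PBS cells. The plate medians were 1931, 2495.5 and 1887 against 2562.5, 3889.5 and 2752, lower at the high dose on each plate, while the cells of the groups overlapped widely. Assigned reads per cell, read back from the steps of the FPKM values, had medians of 1423328 and 1626284. At an equal 300000 reads per cell, genes with a read had a median of 2440.5 in 44 high-dose cells and 3250 in 41 PBS cells; 3 and 5 shallower cells were left out. The fewer genes therefore also stood at equal reads. The 50 most abundant genes of a cell took a median of 34.9% of its reads in the high-dose group and 30.4% in PBS cells.

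**Figure D1:**
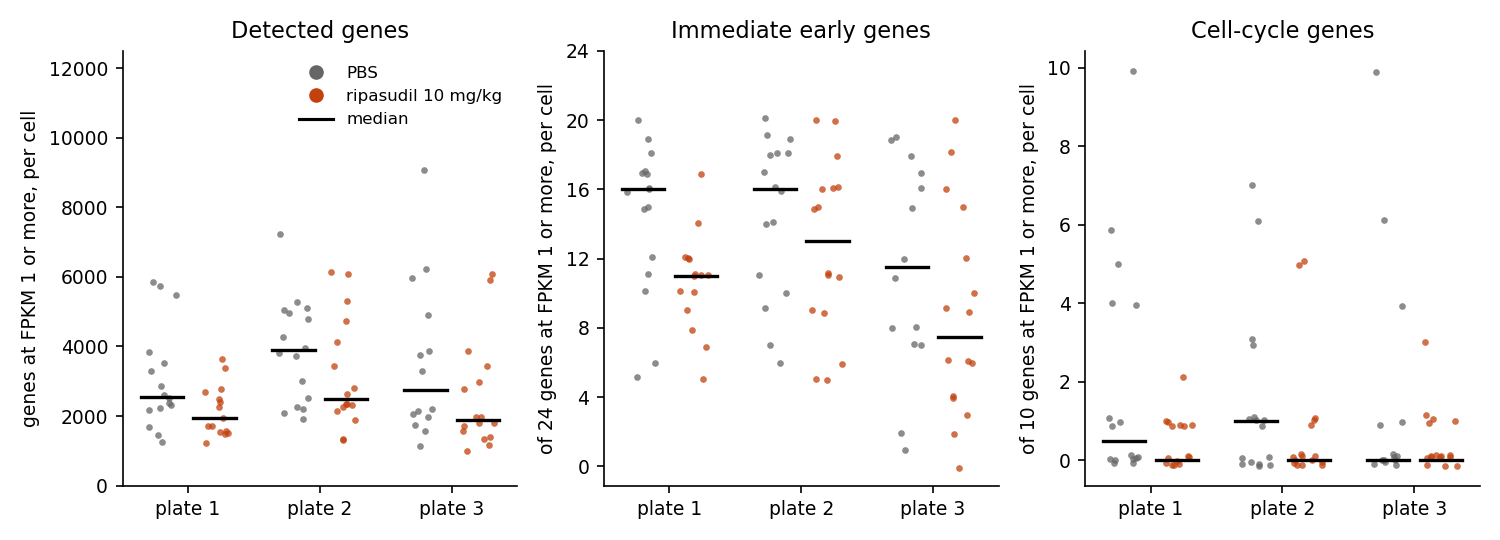
Genes at an FPKM of 1 or more per cell among all genes (left), 24 immediate early genes (middle) and 10 cell-cycle genes (right), by plate. Each point is a cell (grey PBS, orange high dose; points are shifted slightly to separate them) and the black line is the median; the high-dose median of detected genes is below the PBS median on all 3 plates, and 12 PBS but 3 high-dose cells hold 3 or more cell-cycle genes.

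Most genes had a lower mean log2 level in high-dose cells. The level of a gene in a group was its log2(FPKM + 1) averaged across the cells of that group. Subtracting the PBS level from the high-dose level gave the difference. Such differences can be larger or smaller than the log2 ratio of mean FPKM. The median of the proteasome genes was -1.03 as a difference and -0.12 as a ratio. That of the proliferation genes was -0.83 and -1.45. Over 4599 genes detected in at least 25% of the cells of either group, the median difference was -0.44 and 81.8% of genes were lower. By the log2 ratio of mean FPKM the median was -0.058 and 52.3% were lower. The plate medians of the difference were -0.47, -0.34 and -0.51. Within this shift, a gene was called by size alone when the difference reached 1 and had the same sign on all 3 plates. By this rule 645 genes (14.0%) were called lower and 3 (0.0652%) were called higher. The genes called lower can be described by the share of cells and by the level where detected, both of which their choice by a lower mean bears on. Cells reaching an FPKM of 10 were a smaller share at the high dose for all 645, by a median of 20.4 percentage points, against 8.33 over all genes. Where detected, 538 of them had a lower level, with a median difference of -0.64, against 0.083 for all genes.

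The shift varied with abundance, with no steady trend. The 2390 genes with a PBS mean below 2 on the log2 scale had a median difference of -0.33, those of 2 to 4 of -0.62 and those of 6 to 8 of -0.59. Genes with a PBS mean of 4 to 6 on the log2 scale had a median difference of -0.66, and those of 8 to 10 of -0.35. The 26 genes at 10 or more, among them Cst3, C1qb, Tyrobp and Tmsb4x, had a median of 0.036, and none of them was called. When each gene was adjusted for the number of detected genes of the cells, the median over all genes was -0.038 and 53.4% were lower. After that adjustment 101 genes (2.20%) were called lower and 73 (1.59%) higher. Of the 645 genes called lower as measured, 99 were also called lower after adjustment, and 640 kept a value below 0. Measured relative to the median of all genes, 160 were called lower and 66 higher, and among cells with at least 2000 detected genes, 359 and 79. With 1 plate left out, so that 2 plates had to show 1 sign, 17 to 29 genes were called higher. The number of detected genes moved with the dose, and its part in each difference was not tested. Differences below are as measured unless they are said to be adjusted.

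**Figure D2:**
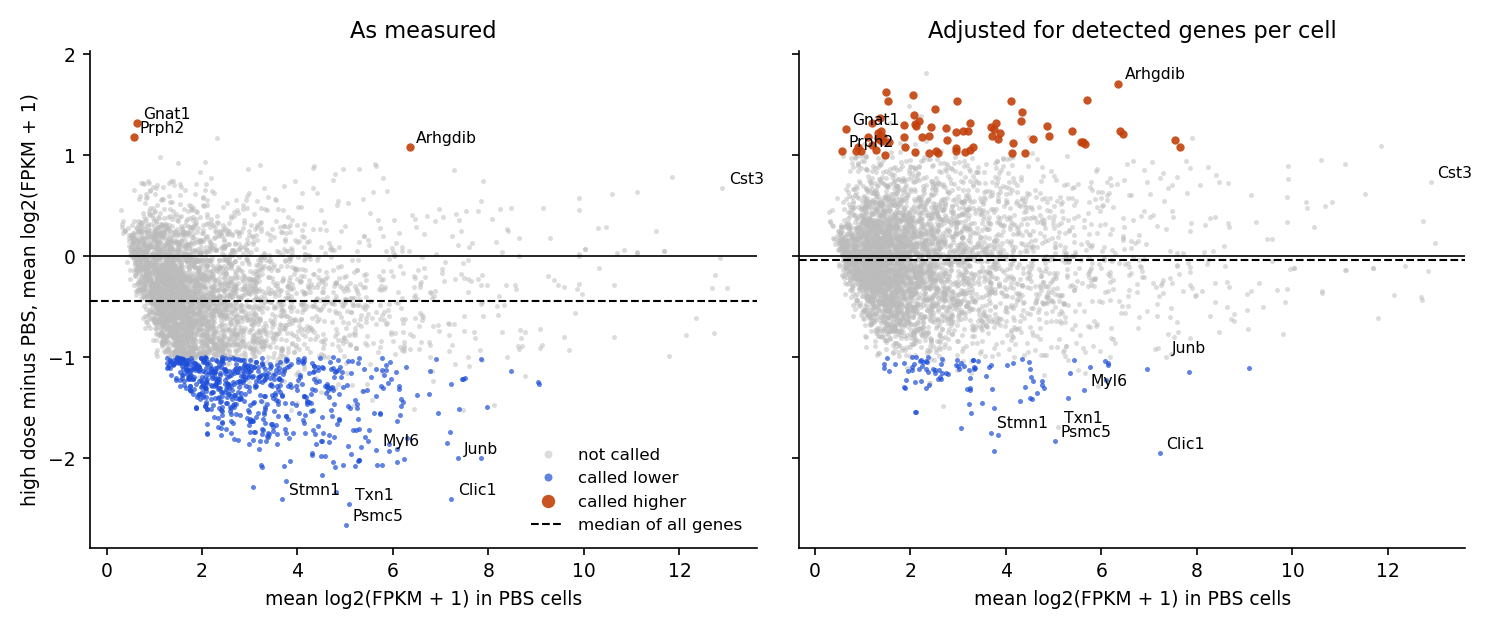
Difference between the groups (high dose minus PBS, mean log2(FPKM + 1)) of 4599 genes against their PBS mean, as measured (left) and adjusted for detected genes (right). Blue genes were called lower, orange genes higher, and the dashed line is the median of all genes, at -0.44 as measured and -0.038 as adjusted. As measured, the shift is smallest among the most abundant genes, which is not so as adjusted.

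Psmc5, an ATPase subunit of the proteasome cap (chromosome 11, 106256154 to 106263120, plus strand), had the largest negative difference among the named genes. Its FPKM ran from 0 to 1579 with a median of 1.38 at the high dose, and from 0 to 4304 with a median of 80.9 in PBS cells. It reached an FPKM of 10 in 9 of 47 and 26 of 46 cells, so the groups overlapped but most cells with a high value were PBS cells. The difference was -2.66 (-1.79, -3.43 and -2.999 on the plates), and -1.83 as adjusted. Among cells with at least 2000 detected genes it was -1.29. At the low dose (1 mg/kg), compared with the same PBS cells, it was -1.32.

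Clic1 encodes a redox-sensitive protein that can insert into membranes as a chloride channel (chromosome 17, 35049966 to 35058749, plus strand). It was found in every PBS cell, with an FPKM from 1.20 to 2574 and a median of 291, but in 35 of 47 high-dose cells, with a median of 19.3 and a highest value of 1951. The difference of -2.40 (-2.45, -1.72 and -3.10) was -1.95 after adjustment, the most negative adjusted value of the annotated genes, and -0.86 among cells with at least 2000 detected genes. The low dose gave -2.53 against the same PBS cells.

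Genes with known roles in cytoskeleton, calcium and growth factor reception stood near these. Stmn1, which encodes the microtubule-destabilising protein stathmin, had an FPKM of 10 or more in 5 high-dose and 21 PBS cells, with highest values of 584 and 1172. Its difference was -2.41 (-2.31, -1.51 and -3.55), -1.74 as adjusted, and -2.81 among cells with at least 2000 detected genes. Tmco1, a calcium channel of the endoplasmic reticulum, was found in 13 and 30 cells, with a difference of -2.22 and -1.92 as adjusted. Csf2ra, the alpha chain of the receptor for granulocyte-macrophage colony-stimulating factor, was found in 14 and 25 cells and reached an FPKM of 10 in 6 and 22. Its difference was -2.08 (-2.16, -1.89 and -2.11), -1.55 as adjusted, and -0.48 at the low dose. All 3 genes were lower on each plate.

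Some large differences rested on how the values were averaged. Txn1, the disulfide reductase thioredoxin, was found in 23 and 33 cells with a difference of -2.45 (-2.88, -3.77 and -0.46). Its highest high-dose value was 6176, above the highest PBS value of 1523, and the log2 ratio of mean FPKM was 0.14. Ifi27l2a, an interferon-stimulated gene, had a difference of -2.06 and a ratio of 0.73, with 1 cell at 11021. For both genes fewer high-dose cells held the transcript, while a few high-dose cells held the most.

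**Figure D3:**
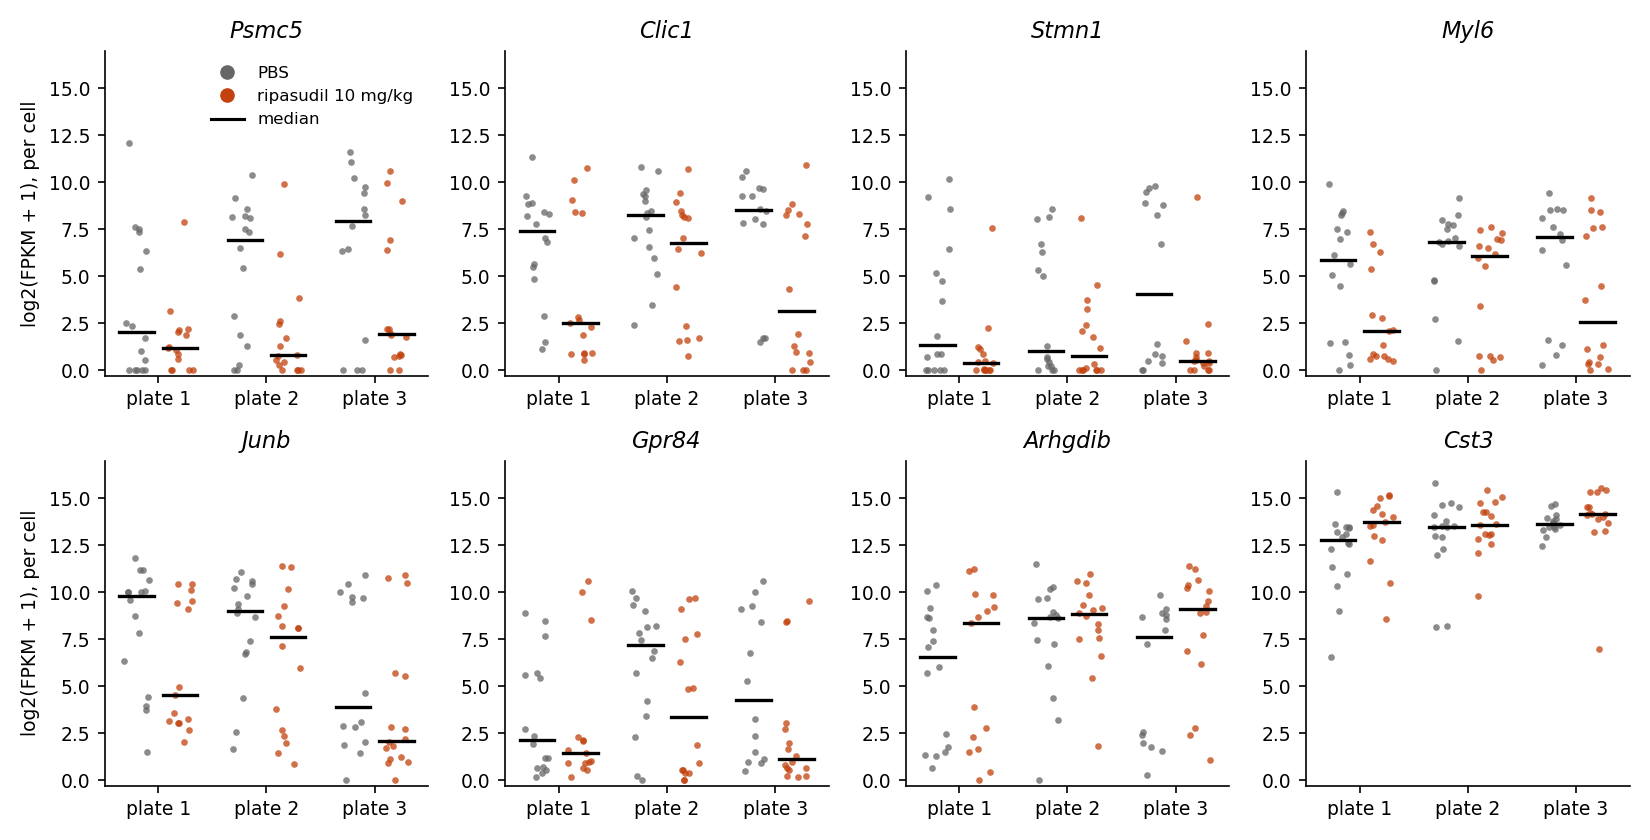
Level of 8 genes, as log2(FPKM + 1), in each cell by plate, with PBS cells in grey and high-dose cells in orange. Levels of Psmc5, Clic1, Stmn1, Myl6, Junb and Gpr84 run from low to high, with some cells in between and fewer high-dose cells in the upper part. Arhgdib and Cst3 are high in most cells of both groups.

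Only 3 genes were called higher. Arhgdib encodes a guanine nucleotide dissociation inhibitor that keeps small GTPases inactive in blood cells and macrophages (chromosome 6, 136923655 to 136941899, minus strand). Its FPKM had a median of 477 and reached 2696 at the high dose, against a median of 212 and a highest value of 2918 in PBS cells, and it was found in 45 and 43 cells. The difference was 1.08 (0.37, 0.58 and 2.30), of which plate 3 gave the largest value, and without plate 3 it was 0.51, below the size needed for a call. As adjusted it was 1.71, and at the low dose -0.27. Its exons overlap those of Pde6h, a cone gene on the opposite strand, which showed 0.90 in the same cells. Whether the reads were counted by strand is not given in the sources used here. Reads of the overlap cannot be assigned to one of the 2 genes.

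The other genes called higher were Gnat1, the transducin of rods (1.32), and Prph2, a structural protein of photoreceptor discs (1.18). Gnat1 reached an FPKM of 10 in 8 high-dose cells and 1 PBS cell, with highest values of 4346 and 18.9. Both are among the 10 rod markers, so leaving out the cells with 3 or more of these markers lowers them by construction, to 0.20 and 0.13. That of Arhgdib, which is not among them, was then 1.35. Cst3, which encodes the protease inhibitor cystatin C and was the most abundant of the named genes, stood at a median FPKM of 16280 against 11171, with a difference of 0.68 (1.18, 0.51 and 0.23). Oat, an enzyme of ornithine breakdown, showed 0.66, and the chemokine Ccl5 0.71, each from few cells, as Oat was found in 12 and 10 and Ccl5 in 13 and 9.

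The ROCK pathway list had a median near that of all genes, with members on both sides of it. Of 29 measured genes 23 were lower, 5 were called lower and 1, Arhgdib, higher. The median was -0.47, near the -0.44 of all genes, and -0.20 as adjusted. Myl6, the essential light chain of non-muscle myosin (chromosome 10, 128490860 to 128494145, minus strand), had an FPKM from 0 to 580 with a median of 6.64 at the high dose, and from 0 to 963 with a median of 114 in PBS cells. It reached an FPKM of 10 in 22 and 34 cells, and its difference was -1.91 (-2.40, -1.45 and -1.97), -1.33 as adjusted and -0.21 at the low dose. It has 5 genes with near-identical sequence elsewhere in the genome, so some of its reads could have been counted there. Myl12a, a regulatory light chain that ROCK signalling acts on, showed -1.50 with medians of 7.13 and 81.4, and Msn, the actin-membrane linker moesin, showed -1.50 with medians of 2.60 and 68.1.

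Among the GTPases and kinases, Rhoa showed -0.36 and was found in 33 and 40 cells. Rock1 showed -0.52 and was found in 5 and 14 cells, and Rock2 -0.30 in 5 and 11 cells, so both kinases were seldom detected in these cells and their differences rest on few of them. Cfl1, the filament-severing cofilin, was found in 46 cells of each group and showed -0.89. Rhob, a small GTPase induced as an immediate early gene, showed -1.14 as measured and -0.015 as adjusted. The genes Rhoc (-0.10) and Myh9, a myosin heavy chain (0.037), lay close to 0.

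All 22 measured genes of the actin cytoskeleton and the MRTF-SRF targets were lower, 9 of them called, with a median of -0.85 and plate medians of -1.10, -0.54 and -0.84. As adjusted the median was -0.34 and 4 genes were called lower. Tpm4, a tropomyosin that wraps actin filaments, had a median FPKM of 0.765 against 34.6 in PBS cells, and reached 10 in 14 and 29 cells; its difference was -1.75, and -1.41 as adjusted. Tmsb10, a thymosin that binds free actin, showed -1.69 and was found in 21 and 37 cells. Cotl1, which binds filaments, showed -1.55 with a log2 ratio of mean FPKM of 0.30, as 1 high-dose cell held 9955. Zyx, a focal adhesion protein, was found in 7 and 18 cells (-1.31), and Flna, which cross-links filaments, in 13 and 22 (-1.31). The most abundant members stood apart from these. Actb showed -0.37 with medians of 1141 and 1157 FPKM, and Tmsb4x showed -0.012 with medians of 7211 and 7800.

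Whether the CArG box goes with the differences was not tested. Of the 17 listed genes with the element 16 were below 0, and 4 were called lower, namely Myl6, Zfp36, Herpud1 and Psma6. For comparison, 81.8% of all compared genes were below 0, and 170 of the 820 measured list genes were called lower. In the actin list the element was found for 2 of 19 genes with a window (10.5%), Actg1 (-0.93) and Cnn2 (-0.78), neither called. In the immediate early list it was found for 2 of 21 (9.52%), Zfp36 and Egr2, and over all genes with a window for 1.81%. The redox list had it for 2 of 24 (8.33%), the Toll-like receptor list for 1 of 15 (6.67%) and the interferon response list for 0 of 29. Ldha, a glycolytic enzyme, carried the element and was the 1 gene above 0 (0.39). No match says only that these letters are not in the window searched.

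Of 26 genes of Rac, the Arp2/3 complex and WAVE, 24 were lower and 5 called lower, where 81.8% of all genes were lower and 14.0% called. Their median was -0.49, and as adjusted it was 0.0055 with 13 below 0 and none called lower. Within the Arp2/3 complex, which nucleates branched actin, Arpc1b showed -1.44 and Actr3 -1.30, while Arpc3 showed 0.24. All 22 tubulin and microtubule genes were lower and 6 were called, with a median of -0.55 and -0.11 as adjusted. Besides Stmn1, Tubb5, a beta-tubulin, showed -2.02 with medians of 5.99 and 60.3 FPKM. In the integrin and adhesion list Itgb2, the beta chain of the leukocyte integrins, showed -1.83 with medians of 2.42 and 71.3, and 4 of 24 genes were called lower.

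Immediate early genes had one of the lowest medians of the 33 lists. All 24 were lower and 12 were called lower, with a median of -1.19 (-1.75, -0.75 and -0.95 on the plates). Junb, a subunit of the AP-1 transcription factor, had a median FPKM of 12.97 among high-dose and 503 among PBS cells, and was found in 43 and 45 cells. Its difference was -1.9997 (-2.23, -1.68 and -1.84), -0.99 as adjusted and -1.44 at the low dose. Junb did not stand for its list there, as the low-dose median of the immediate early genes was -0.059. Btg2, an antiproliferative gene, showed -2.07 (-0.93 as adjusted) with medians of 1.98 and 26.5, and Klf6, a zinc finger factor, was found in 14 and 28 cells (-1.66). Atf3, a stress-induced factor, showed -1.62, and Zfp36, which degrades cytokine transcripts, -1.55. Fos, the partner of Junb, showed -1.24 but 0.87 on plate 2, so it was not called. As adjusted, the median of the list was -0.33, none of its genes was called, and 19 were below 0.

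The same genes can be counted in each cell. A high-dose cell held a median of 11 of the 24 immediate early genes and a PBS cell 15.5, counted from an FPKM of 1. Over all genes the medians of detected genes per cell were 2264 and 3143, also lower at the high dose. Whether the immediate early count was lower beyond this was not tested. At least 12 of the 24 were held by 18 high-dose cells (38.3%, 24.5 to 53.6) and 30 PBS cells (65.2%, 49.8 to 78.6). Among cells with at least 2000 detected genes the numbers were 14 of 26 (53.8%) and 29 of 38 (76.3%). At an FPKM of 10 or more the medians were 3 and 10 genes.

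The series is named for Gpr84, a fatty acid receptor, and for the cytokines Tnf and Il1a. They were found together in fewer high-dose cells. All 3 were present in 18 of 47 high-dose cells (38.3%, 24.5 to 53.6) and 29 of 46 PBS cells (63.0%, 47.5 to 76.8), and at an FPKM of 10 or more in 8 and 16. None of the 3 was present in 7 and 3 cells. In cells with at least 2000 detected genes all 3 were present in 13 of 26 and 27 of 38. The median FPKM of Gpr84 was 1.72 against 40.1, of Tnf 1.71 against 5.76 and of Il1a 2.03 against 13.1. All 3 genes met the rule for lower calls as measured and none did as adjusted, where they stood at -0.40, 0.015 and -0.15.

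As measured, the wider inflammatory lists were near the median of all genes, but by the log2 ratio of mean FPKM they were not. By that ratio the medians were -1.20 (NF-kB), -0.80 (cytokines and chemokines), 0.32 (interferon response) and -0.78 (Toll-like receptors), against -0.058 for all genes. As adjusted they were -0.23, -0.061, 0.034 and -0.24, against -0.038 for all genes. In the NF-kB list 17 of 20 were lower and 4 called lower, with a median of -0.54. Nfkbia, the inhibitor that NF-kB itself induces, showed -2.01 (-0.82 as adjusted) with medians of 5.35 and 102 FPKM, and Nfkbiz, a nuclear regulator of the pathway, -1.78 in 15 and 27 cells. The subunits Rela (-0.11), Nfkb1 (-0.37) and Rel (-0.50) showed smaller differences. Of 22 cytokines and chemokines 20 were lower and 3 called lower, with a median of -0.51. The third call beside Tnf and Il1a was Ccl2, a chemokine for monocytes, at -1.72 (-2.29, -0.31 and -2.64). At the low dose Ccl2 showed -2.44, where the median of the list was -0.31. Il1b showed -0.13 and was found in 9 and 10 cells. Of 36 interferon response genes 28 were lower, 6 were called lower and the median was -0.44; Irf1 showed -1.40 in 5 and 18 cells, while Ifit2 showed 0.64. Toll-like receptors and their signalling genes had 1 call of 21, Tlr1 (-1.05).

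Antigen presentation genes of class I had a lower median than those of class II. In the MHC class I and immunoproteasome list 20 of 21 genes were lower and 8 were called lower, with a median of -0.88 (-1.06, -0.57 and -1.11) and -0.34 as adjusted. H2-K1, a classical class I heavy chain, had medians of 5.24 and 189 FPKM and a difference of -1.80. Psme2, a subunit of the proteasome activator PA28, had medians of 7.02 and 155 and a difference of -1.91, whereas its partner Psme1 showed 0.033. H2-Q6 showed -2.02, but 15 genes carry near-identical sequence, so its reads are uncertain. In the class II list 9 of 12 were lower and 2 called lower, with a median of -0.30; Cd86, a costimulatory ligand, showed -1.28, and H2-Aa 0.17. The difference between these lists was not tested.

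The proteasome had a median of -1.03, with 32 of 33 subunits lower and 15 called lower. Beside Psmc5, the core subunit Psmb2 had medians of 3.39 and 147 FPKM and a difference of -1.93, and Psmd2, a scaffold of the cap, was found in 13 and 32 cells (-1.76). Psmd1 was the 1 subunit above 0 (0.21). As adjusted the median was -0.40 and 2 genes, Psmc5 and Psmd4, were called. The plate medians of -0.98, -0.80 and -0.97 lay close together.

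Other genes of protein quality control did not all follow. In the list of endoplasmic reticulum stress 20 of 23 were lower and 8 called lower, with a median of -0.77 but 0.095 as adjusted. Herpud1, which takes part in degradation of misfolded proteins, showed -2.08 in 14 and 29 cells, Hsp90b1, a chaperone of the endoplasmic reticulum, -1.96 (-0.82 as adjusted) with medians of 1.51 and 78.2, and Edem1 -1.83. Hspa5, the main chaperone of this compartment, showed -0.13 with medians of 201 and 199. The cytosolic chaperones had a median of -0.37 with 1 of 30 called lower; Hsp90ab1 (0.45) and Hspa8 (0.47) were above 0. The cytosolic ribosome had a median of -0.23, with 38 of 58 lower, 6 called lower and several members above 0, such as Rpl18 (0.87) and Rplp0 (0.75). Most ribosomal genes have near-identical copies, so their reads are uncertain.

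Cells with cell-cycle transcripts were fewer at the high dose. At least 3 of 10 cell-cycle markers were found in 3 of 47 high-dose cells (6.38%, 1.34 to 17.5) and 12 of 46 PBS cells (26.1%, 14.3 to 41.1). By plate these were 0, 2 and 1 against 5, 4 and 3 cells. A high-dose cell held at most 5 of the markers and a PBS cell at most 10. The 12 PBS cells had 2255 to 9077 detected genes. Among cells with at least 2000 detected genes the shares were 3 of 26 (11.5%, 2.45 to 30.2) and 12 of 38 (31.6%, 17.5 to 48.7). Without the cells with 3 or more rod markers they were 1 of 36 and 11 of 40.

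Birc5, the mitotic protein survivin, was found in 2 high-dose cells and in 11 PBS cells, with highest values of 3.64 and 281 FPKM. Cdk1, the mitotic kinase, was found in 2 and 10 cells with highest values of 6.71 and 147, and Top2a, which untangles chromosomes, in 3 and 9. Cdc20, an activator of the anaphase-promoting complex, and Ccnb1, cyclin B1, were found in none of the 47 high-dose cells, which allows a share of up to 6.38% when a count of 0 is taken to allow 3 cells, and up to 7.55% by the exact interval, and in 6 and 7 PBS cells. Over the whole list, 37 of 39 genes were lower and 14 were called lower. The median was -0.83 (-1.01, -0.62 and -0.84), -0.52 as adjusted and -0.89 among cells with at least 2000 detected genes. Hmgb2, a chromatin protein of dividing cells with 5 near-identical copies, showed -2.07 in 10 and 26 cells, and Pcna, the clamp of DNA replication, -1.58 in 18 and 30.

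**Figure D4:**
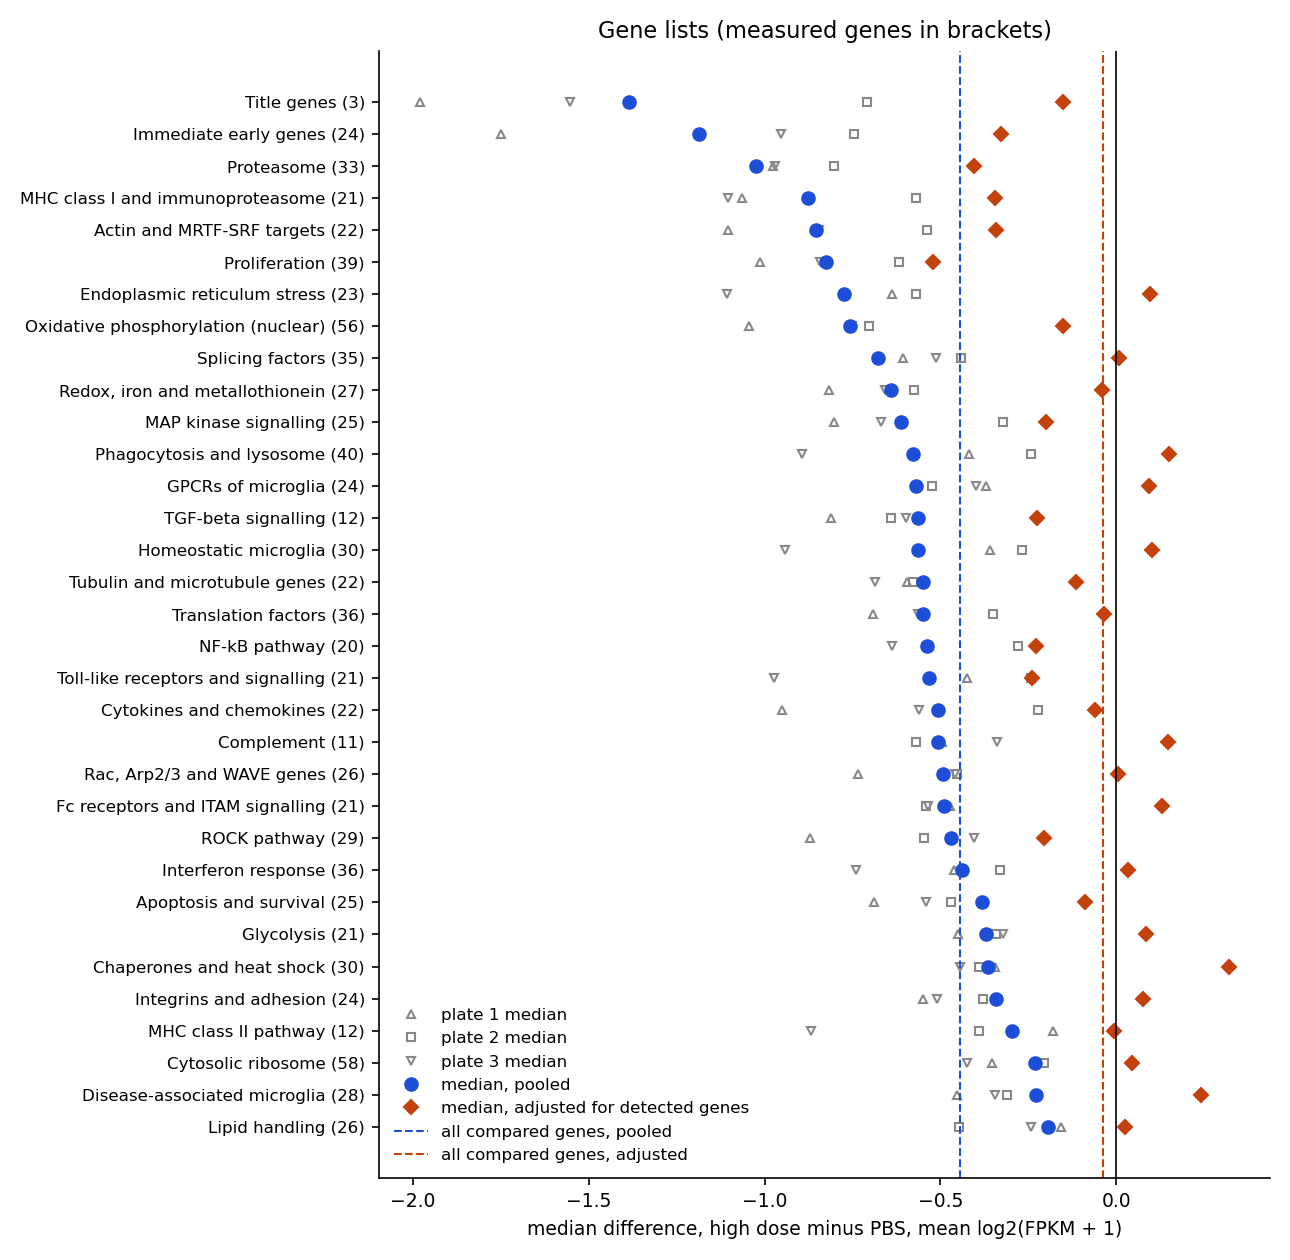
Median difference (high dose minus PBS, mean log2(FPKM + 1)) of the measured genes of 33 lists. Blue circles are pooled medians, open grey symbols plate medians, orange diamonds medians adjusted for detected genes, and dashed lines the same over all genes; all pooled medians lie below 0, and after adjustment 18 lie below and 15 above 0.

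Of 30 homeostatic genes of microglia 27 were lower and 5 called lower (16.7%, against 14.0% of all genes), with a median of -0.56. As adjusted the median was 0.10 and 13 were below 0. Spi1, the macrophage factor PU.1, had medians of 8.04 and 87.9 FPKM and a difference of -1.55 (-1.51, -2.43 and -0.54). Its partner Irf8 showed -1.29, and Mertk, a receptor for dying cells, was found in 10 and 20 cells (-1.39). Cx3cr1 (-0.16), Tmem119 (-0.30) and Csf1r (0.46) were nearer to 0 or above it. Among genes raised in disease-associated microglia 19 of 28 were lower and 4 called lower, with a median of -0.23. Clec7a, a receptor for fungal glucans, showed -1.48 with medians of 3.90 and 67.4, and 0.66 at the low dose, where the list median was -0.017. Tyrobp, the adaptor of activating receptors, showed 0.63.

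The C1q genes, which start the classical complement pathway, were not lower. C1qb had medians of 8475 and 7118 FPKM and a difference of 0.78, but -0.56 on plate 3; C1qa showed 0.58 and C1qc 0.28. In the list of Fc receptors and ITAM signalling 17 of 21 were lower and 4 called lower. Fcgr4, a receptor for immunoglobulin G, showed -1.86, while Fcer1g, the shared signalling chain, showed 0.62 with medians of 4104 and 2620. Among 40 genes of phagocytosis and the lysosome 36 were lower and 9 called lower, with a median of -0.58 and 0.15 as adjusted. Ctsh, a cysteine protease, showed -2.07 with medians of 3.52 and 129, and Psap, which yields the saposins, -1.51 with medians of 72.4 and 407. Grn, progranulin, showed -1.49 with medians of 106 and 684. The most abundant proteases Ctsd (0.031), Ctsb (0.25) and Ctss (0.25) were close to 0 or above.

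Energy and RNA metabolism followed the median or lay somewhat below it. Of 56 nuclear genes of oxidative phosphorylation 48 were lower and 16 called lower, with a median of -0.76 and -0.15 as adjusted. Cox6b1, a subunit of cytochrome c oxidase, showed -1.85 with medians of 61.2 and 298 FPKM, and Cycs, cytochrome c, -1.78 in 27 and 40 cells. Of 21 glycolytic genes 16 were lower and 2 called lower (Tkt and Taldo1, both of the pentose phosphate branch), with a median of -0.37. Among 35 splicing factors 31 were lower and 8 called lower; Sf3b1, of the U2 particle, was found in 13 and 32 cells (-1.91), and Hnrnpa1 in 28 and 40 (-2.09, with 9 near-identical copies). In the redox list, beside Clic1 and Txn1, glutathione reductase Gsr was found in 4 and 15 cells (-1.30), and Mt1, a metallothionein, showed 0.25. Of the MAP kinase genes Mapk3 (ERK1) was found in 11 and 27 cells (-1.40).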

How the data were processed

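The authors deposited FPKM values per gene and cell for 55364 genes, together with gene lengths. STAR 2.7.2b and featureCounts 1.6.1 are named in the submitters' processing notes beside cutadapt 1.16, Trim Galore 0.4.4 and Trimmomatic 0.36, with the build GRCm38.p6 or mm10; settings and use of strand are not given in the sources used here. Per the labels' protocols the libraries were made from single-cell cDNA with the Nextera XT kit, and no molecular identifiers were named, so intervals cover counting error only. Of the gene identifiers 55104 were found in GENCODE M21, 54784 with the same coordinates. Mitochondrially encoded genes were not analysed here.

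Reads per cell, 30204 to 4477919 in the kept cells, were recovered as FPKM times length divided by its most frequent value. A median of 53.7% of values above 0 were whole reads within 0.01, so no count model was used. Differences used a pseudocount of 1. Genes detected in at least 25% of cells of either group were compared, and list members in at least 10%; 2 members were not in the table. The adjustment subtracted the slope on log2 detected genes, fitted with group and plate. Near-identical copies shared at least 95% identity over 200 bases (blast 2.17.0). Intervals are exact 95% Clopper-Pearson. Named genes were the 15 largest differences each way with 1 sign on all plates, the title genes, and the 3 largest per list; other list members are examples chosen after their values were seen. The groups, members, 33 gene lists and 19 marker lists were chosen with earlier results of these data known. Lists share some members. Alternatives were other filters, pseudocounts, strata, plates left out, a plate block and thinning. Python 3.11.15, numpy 2.4.6, pandas 2.3.3, scipy 1.17.1 and matplotlib 3.10.9 were used, and the calculations were tested on simulated data. Each library was meant to hold 1 sorted cell, and whether any held more was not tested. The tissue and the sort were not examined further. There were 0 columns of other samples. Some single genes are not reported here.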

Additional observations from a re-analysis of the deposited data

How the results depend on the processing

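No value had a replicate check, and 1 sample per group allows no test. All 33 list medians were below 0 as measured; 15 were above 0 as adjusted for detected genes. No paired analysis of animals was possible because the labels name none; averaging the plate differences (plate as replicate block) left every result within the limits used here. Genes called lower numbered 101 as adjusted, 118 within strata of detected genes, 359 among cells with at least 2000 detected genes, 1403 and 71 with pseudocounts of 0.1 and 10, and 160 relative to the median. Genes called higher numbered 73, 25, 79, 15, 1 and 66 in the same order, 252 by the ratio of mean FPKM, 17 to 29 without 1 plate, 7 without cells with rod markers, 6 with at least 300000 reads and 8 when thinned, a setting chosen after the data were seen. The median of all genes was -0.038 as adjusted, -0.025 within strata, -0.17 in cells with 2000 genes, -0.77 and -0.15 with the pseudocounts, -0.058 by the ratio, -0.021 with no filter and 0 relative to itself. As adjusted and within strata, the medians were -0.15 and -0.082 (title genes), -0.20 and -0.16 (ROCK pathway), -0.34 and -0.26 (actin), -0.33 and -0.22 (immediate early), -0.34 and -0.31 (MHC class I), -0.40 and -0.33 (proteasome), and -0.52 and -0.50 (proliferation). In cells with 2000 genes they were -0.35 (actin), -0.53 (immediate early), -0.35 (MHC class I) and -0.59 (proteasome). With a pseudocount of 0.1 they were -0.75 (ROCK pathway), -1.28 (proteasome) and -1.23 (proliferation), and with 10 they were -0.21, -0.58 and -0.41, beside -0.46 (actin) and -0.52 (MHC class I). The ratio gave -0.064 (actin), -0.37 (MHC class I), -0.12 (proteasome) and -1.45 (proliferation). Relative to the median the values were -0.025 (ROCK pathway), -0.41 (actin), -0.43 (MHC class I), -0.58 (proteasome) and -0.38 (proliferation). The proteasome stood at -0.90 in all 48 cells, at -0.91 to -0.85 without plate 1 or 3 and at -1.15 with 300000 reads, and proliferation at -0.62 without plate 1. Of 110 named genes, 8 changed sign by the ratio, 5 as adjusted, 4 within strata and 2 in cells with 2000 genes. Among the 87 of them that were called, signs reversed for 7 by the ratio (Apoe 0.056, Bcl2a1b 0.011, Cd86 0.16, Cotl1 0.30, Ifi27l2a 0.73, Nckap1l 0.17, Txn1 0.14) and for Tnf as adjusted (0.015). With any FPKM above 0 as detection, the share of cells differed by -2.08 points for Gpr84, 2.31 for Tnf and -4.16 for Il1a. The cause of these changes was not tested.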

Other observations

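Several lists described above only in part or not at all had medians between -0.19 and -0.68, on both sides of the -0.44 of all genes; values are high-dose minus PBS means of log2(FPKM + 1), as measured. Of 25 MAP kinase genes 22 were lower and 4 called lower (median -0.61), and of 36 translation factors 30 and 5 (-0.55). Eif3c and Eif3h, subunits of the initiation factor that binds the small ribosomal subunit, showed -1.47 and -1.45, while the elongation factor Eef1a1, which has 9 genes with near-identical sequence, showed 0.48. Of 24 receptors coupled to G proteins 22 were lower and 2 called lower (-0.57), namely Gpr84 and the chemerin receptor Ccrl2 (-1.13). All 12 measured TGF-beta genes were lower and 2 called lower (-0.56), Pmepa1 (-1.22), a feedback inhibitor of the pathway, and Nrros (-1.02), which anchors latent TGF-beta. Of 25 apoptosis and survival genes 24 were lower and 3 called lower (-0.38), among them Mcl1 (-1.24), which protects from cell death. Of 26 genes of lipid handling 19 were lower and 2 called lower (-0.19). The medians not given above were -0.34 for integrins and adhesion, -0.53 for Toll-like receptors, -0.51 for complement (8 of 11 lower, 1 called lower), -0.49 for Fc receptors, -0.64 for the redox list (24 of 27 lower, 8 called lower) and -0.68 for splicing factors.

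Beside the rod markers, at least 3 markers were found for neutrophils in 8 high-dose and 10 PBS cells, for Muller glia in 6 and 7, for cones in 4 and 1, for border macrophages in 3 and 4, for monocytes in 1 and 1, and for dendritic, ganglion and erythroid cells in 0 high-dose cells and 2, 1 and 1 PBS cells. For bipolar, amacrine, endothelial and B cells, astrocytes, pericytes, oligodendrocytes and pigment epithelium it was 0 cells in both groups. The median cell of each group already held 2 markers of Muller glia and 2 of cones, so 3 lay near that level. The Muller glia markers include Apoe and Vim. The cone markers include Pde6h and Gngt2, whose exons overlap those of Arhgdib and Abi3. The highest summed FPKM of the neutrophil markers in a cell was 82012 at the high dose and 83548 in the PBS group, while Ly6g and Camp, markers of mature and maturing neutrophils, were at 0 in every cell.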
